A study of Homo sapiens with 12 samples.

Results

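Transcripts of 35 glycolysis and hypoxia-induced genes were followed in U87 cells treated with 1 of 3 compounds. The genes were taken as a list of symbols with earlier results of these data known, no measured value entered the rule that picks them, and each symbol mapped to 1 row of an expression table of 62757 rows. They comprise 3 glucose and lactate transporters, 17 glycolytic enzymes, 3 kinases that set glycolytic flux, 10 other hypoxia-induced genes and 2 alpha subunits of the hypoxia-inducible factors. All 35 passed the filter on low values (a mean of at least 3 over the 12 libraries) and were among the 15524 genes tested. U87, also called U87MG, is an established human glioblastoma line grown as a culture of 1 cell type. Cells were exposed for 72 h to compound 1 at 30 µM, compound 4 at 10 µM, compound 5 at 5 µM or vehicle, with 3 libraries of poly(A) RNA per group, 12 in all, which the labels call biological replicates. The labels give the compounds by number only and the series title names taxodione and paclitaxel, so no number is tied to a molecule here. The labels' protocols describe ordinary incubation in a CO2 atmosphere and state no low-oxygen step for any group. Because the doses differ, a difference between compounds below is one between groups as treated.

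Values are regularized log (rlog) values, which DESeq2 makes from gene counts on the log2 scale, so a difference of 1 is a doubling. This transformation shrinks differences, chiefly those of weakly expressed genes, and so understates their changes and their spread. With no read counts at hand, library depth is unknown. Differences carry their standard error (SE, n = 3 per group) and come from limma fitted over all 12 libraries. In this fit the variance of each gene is drawn toward that of genes of similar level. For members with a wide spread the SE is therefore smaller than their own libraries alone would give. SLC2A1 and NDRG1 had the widest, with a residual SD between libraries of 0.180 and 0.175. A gene was called when its Benjamini-Hochberg adjusted p over all genes tested was below 0.05.

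Glycolysis splits glucose into pyruvate in the cytosol, and lactate dehydrogenase turns pyruvate into lactate, which leaves the cell through monocarboxylate transporters. When oxygen is low, the alpha subunits of the hypoxia-inducible factors escape the prolyl hydroxylation that marks them for destruction, pair with ARNT and bind DNA at elements with a short core written RCGTG. Genes for glucose uptake, nearly every glycolytic step, angiogenesis, pH control and mitophagy are textbook targets of these factors, and glioblastomas are known for high glycolysis and for hypoxic zones around necrosis.

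The promoter windows of 7 members are printed because these genes carry the main contrasts below: SLC2A1, ENO2 and ADM rose with all 3 compounds, BNIP3 rose with compounds 1 and 5, PGK1 and CA9 rose with those and fell with compound 4, and ALDOC rose with compound 1 and fell with compound 4. The sequences are from RefSeq (GRCh38.p14), run 5′ to 3′ on the gene's strand from 250 bases before the annotated start to 50 after the start, and lie at chr1:42958819-42959118 (SLC2A1, minus strand), chr12:6914330-6914629 (ENO2, plus strand), chr11:10304823-10305122 (ADM, plus strand), chr10:131981874-131982173 (BNIP3, minus strand), chrX:78103998-78104297 (PGK1, plus strand), chr9:35673678-35673977 (CA9, plus strand) and chr17:28576846-28577145 (ALDOC, minus strand). Capitals mark stretches that match ACGTG or GCGTG on either strand (CACGT or CACGC when read on the printed strand), with overlapping matches merged into a single stretch.
SLC2A1: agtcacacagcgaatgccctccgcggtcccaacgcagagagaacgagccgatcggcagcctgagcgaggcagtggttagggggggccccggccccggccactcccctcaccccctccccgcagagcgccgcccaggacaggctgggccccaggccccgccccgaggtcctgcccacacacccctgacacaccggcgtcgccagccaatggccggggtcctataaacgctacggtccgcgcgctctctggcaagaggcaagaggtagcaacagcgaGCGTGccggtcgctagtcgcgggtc
ENO2: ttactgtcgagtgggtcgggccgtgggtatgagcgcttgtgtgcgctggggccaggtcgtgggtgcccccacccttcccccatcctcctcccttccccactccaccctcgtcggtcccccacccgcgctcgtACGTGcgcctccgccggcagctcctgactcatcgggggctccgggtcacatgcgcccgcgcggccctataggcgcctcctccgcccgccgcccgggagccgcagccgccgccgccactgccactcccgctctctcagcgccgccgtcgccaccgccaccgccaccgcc
ADM: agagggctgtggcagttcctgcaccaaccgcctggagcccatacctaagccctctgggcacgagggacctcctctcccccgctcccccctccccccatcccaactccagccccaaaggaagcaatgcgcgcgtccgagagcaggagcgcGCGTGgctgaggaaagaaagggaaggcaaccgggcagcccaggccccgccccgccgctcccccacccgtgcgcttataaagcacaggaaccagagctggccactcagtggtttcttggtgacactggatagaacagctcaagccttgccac
BNIP3: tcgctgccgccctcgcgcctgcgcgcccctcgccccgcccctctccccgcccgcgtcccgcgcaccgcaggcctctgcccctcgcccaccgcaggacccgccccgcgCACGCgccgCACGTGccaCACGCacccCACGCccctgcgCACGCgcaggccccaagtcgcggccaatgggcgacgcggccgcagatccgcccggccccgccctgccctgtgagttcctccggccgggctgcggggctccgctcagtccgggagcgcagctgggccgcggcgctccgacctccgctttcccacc
PGK1: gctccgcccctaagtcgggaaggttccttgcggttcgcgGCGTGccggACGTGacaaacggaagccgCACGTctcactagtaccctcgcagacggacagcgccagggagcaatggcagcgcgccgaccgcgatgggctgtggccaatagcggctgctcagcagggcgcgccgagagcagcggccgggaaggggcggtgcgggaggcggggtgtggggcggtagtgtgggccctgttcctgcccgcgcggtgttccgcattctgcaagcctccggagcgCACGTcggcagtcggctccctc
CA9: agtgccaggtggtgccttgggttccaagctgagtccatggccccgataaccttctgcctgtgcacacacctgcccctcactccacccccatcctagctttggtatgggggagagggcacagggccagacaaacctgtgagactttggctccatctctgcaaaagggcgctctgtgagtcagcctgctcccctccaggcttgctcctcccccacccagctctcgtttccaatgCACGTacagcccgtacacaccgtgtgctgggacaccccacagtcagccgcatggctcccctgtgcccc
ALDOC: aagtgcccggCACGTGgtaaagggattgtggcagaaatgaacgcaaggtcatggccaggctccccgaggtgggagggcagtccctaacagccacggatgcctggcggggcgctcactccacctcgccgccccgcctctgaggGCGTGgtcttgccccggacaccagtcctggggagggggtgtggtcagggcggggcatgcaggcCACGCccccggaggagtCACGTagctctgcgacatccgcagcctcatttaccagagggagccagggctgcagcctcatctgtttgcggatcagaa
SLC2A1, ENO2, ADM and CA9 held 1 such stretch each, PGK1 and ALDOC 4 each, and BNIP3 5, the first at -143 and the last ending at -100 bases from its start. Of the 35 members, 31 had a promoter entry (all but SLC2A3, VEGFA, BNIP3L and NDRG1), and 29 of the 31 (93.5%) held at least 1 stretch in at least 1 window. The same was true of 69.2% of tested genes with an entry and of 52.4% of all genes. Counted by window, 40 of 59 member windows (67.8%) and 48.4% of all 35116 windows of this kind held a match. These shares are not fully matched. The 59 windows belong to 31 members and the 35116 to 27305 genes, and a gene with more windows has more chances of a match. The share by window also covers all genes, not only those tested. At least 2 stretches in a window were found for 11 of 31 members (35.5%) and 35.4% of tested genes, at least 3 for 7 members (22.6%) and 14.7%, and at least 4 for 5 members (16.1%) and 5.32%. Letters that match are not evidence of a bound factor, and a window without a match says nothing on sites farther away.

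**Figure D1:**
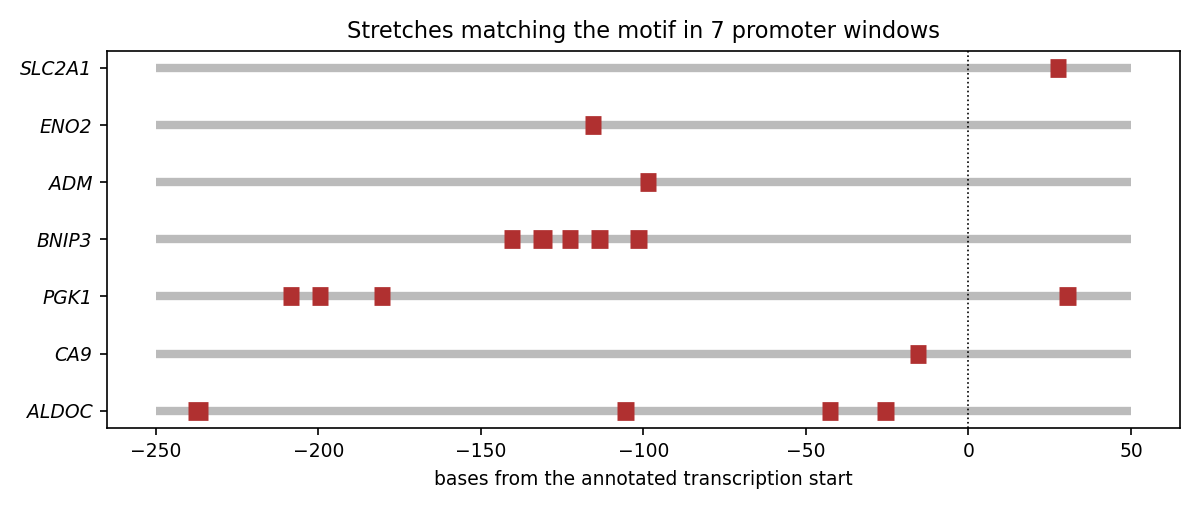
Stretches that match ACGTG or GCGTG on either strand (red) in the 300-base promoter windows of 7 genes (grey), by distance in bases from the annotated transcription start (dotted line). BNIP3 has 5 stretches close together before the start and ALDOC has 4 spread over its window, whereas SLC2A1, ENO2, ADM and CA9 have 1 each.

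The labelled cell type was set beside markers. The 8 glioma markers (VIM, CD44, NES, TNC, CHI3L1, S100A11, SPARC and FOSL2) are not particular to glioma, so they cannot settle the label. Mean vehicle rlog of 8 glioma markers was between 10.65 (NES) and 16.00 (VIM), while 4 astrocyte markers lay between -2.21 (AQP4) and 5.74 (GFAP), 5 leukocyte markers between -2.21 (CD3E and AIF1) and 3.19 (CD68), 4 endothelial markers between -0.31 (CLDN5) and 6.06 (VWF) and 4 epithelial markers between -0.08 (CDH1) and 6.74 (KRT8). Of 5 neuron markers, MAP2, SNAP25 and SYT1 were present at 9.71, 8.95 and 7.89, RBFOX3 stood at 4.43 and STMN2 at -0.81. SNAP25 rose by 0.55 and 0.61 with compounds 4 and 5, while MAP2 fell by 0.30 and 0.23 and SYT1 by 0.20 and 0.26. VWF fell by 0.39 and 0.31 with the same compounds, and KRT8 by 0.25 with compound 4. Of the glioma markers, 1 rose and 1 fell with compound 1, and 1 rose and 5 fell with compound 4. With compound 5, 3 rose and 3 fell. Among all tested genes, 5.24%, 19.0% and 15.9% rose and 5.63%, 21.6% and 19.2% fell with compounds 1, 4 and 5. SPARC fell furthest of the glioma markers, by 0.76 with compound 4. The part of these markers in the results below was not tested. Some libraries stood apart for these members: replicate 3 of compound 1 had the lowest value of its group for 33 of 35 members (39.5% of all tested genes), replicate 3 of compound 4 for 28 of 35 (35.7%), and replicate 1 of compound 5 had the highest for 28 of 35 (39.1%). The median residual SD between libraries was 0.065 for the members and 0.047 for all tested genes. The mean level of 16 nuclear-retained transcripts was 10.73 to 10.93 in compound 1 libraries, 10.82 to 10.85 in compound 4 libraries, 10.82 to 10.95 in compound 5 libraries and 10.52 to 10.76 in vehicle libraries, and calls lost with this level as a covariate are given beside the genes. All compound 4 and compound 5 libraries lay above all vehicle libraries in this level, and compound 1 libraries overlapped vehicle. The covariate is therefore confounded with treatment, and calls lost or gained with it cannot be assigned to either.

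Compound 5 raised most of the set, compound 1 raised fewer members, and compound 4 raised some and lowered others. With compound 1, 15 of 35 members rose and 1 fell, where 5.24% of all tested genes rose and 5.63% fell. With compound 4, 11 rose and 9 fell, against 19.0% and 21.6% of all tested genes, so the falls were near the background. With compound 5, 23 rose and 1 fell, against 15.9% and 19.2%. The median difference over the 35 was 0.09 with compound 1, 0.02 with compound 4 and 0.19 with compound 5, and the median over all tested genes was within 0.003 of 0 in each. All 3 libraries lay above vehicle for 15 members and below for 2 with compound 1 (13.2% and 16.7% of tested genes), above for 13 and below for 10 with compound 4 (25.2% and 28.2%), and above for 23 and below for 1 with compound 5 (20.9% and 23.2%). The 3 comparisons share the vehicle libraries. The counts depended on single libraries for compound 1: without its replicate 1, 9 members rose and 0 fell, and without its replicate 3, 16 rose and 0 fell. Without replicate 3 of compound 4, 11 rose and 7 fell, and without replicate 1 of compound 5, 20 rose and 3 fell (HK1, SLC2A3 and ALDOA). When the mean level of nuclear-retained transcripts entered the fit as a covariate, 16 members rose and 0 fell with compound 1, 16 rose and 3 fell with compound 4, and 25 rose and 1 fell with compound 5. With quantile-normalized libraries the split with compound 1 was 13 higher and 3 lower.

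**Figure D2:**
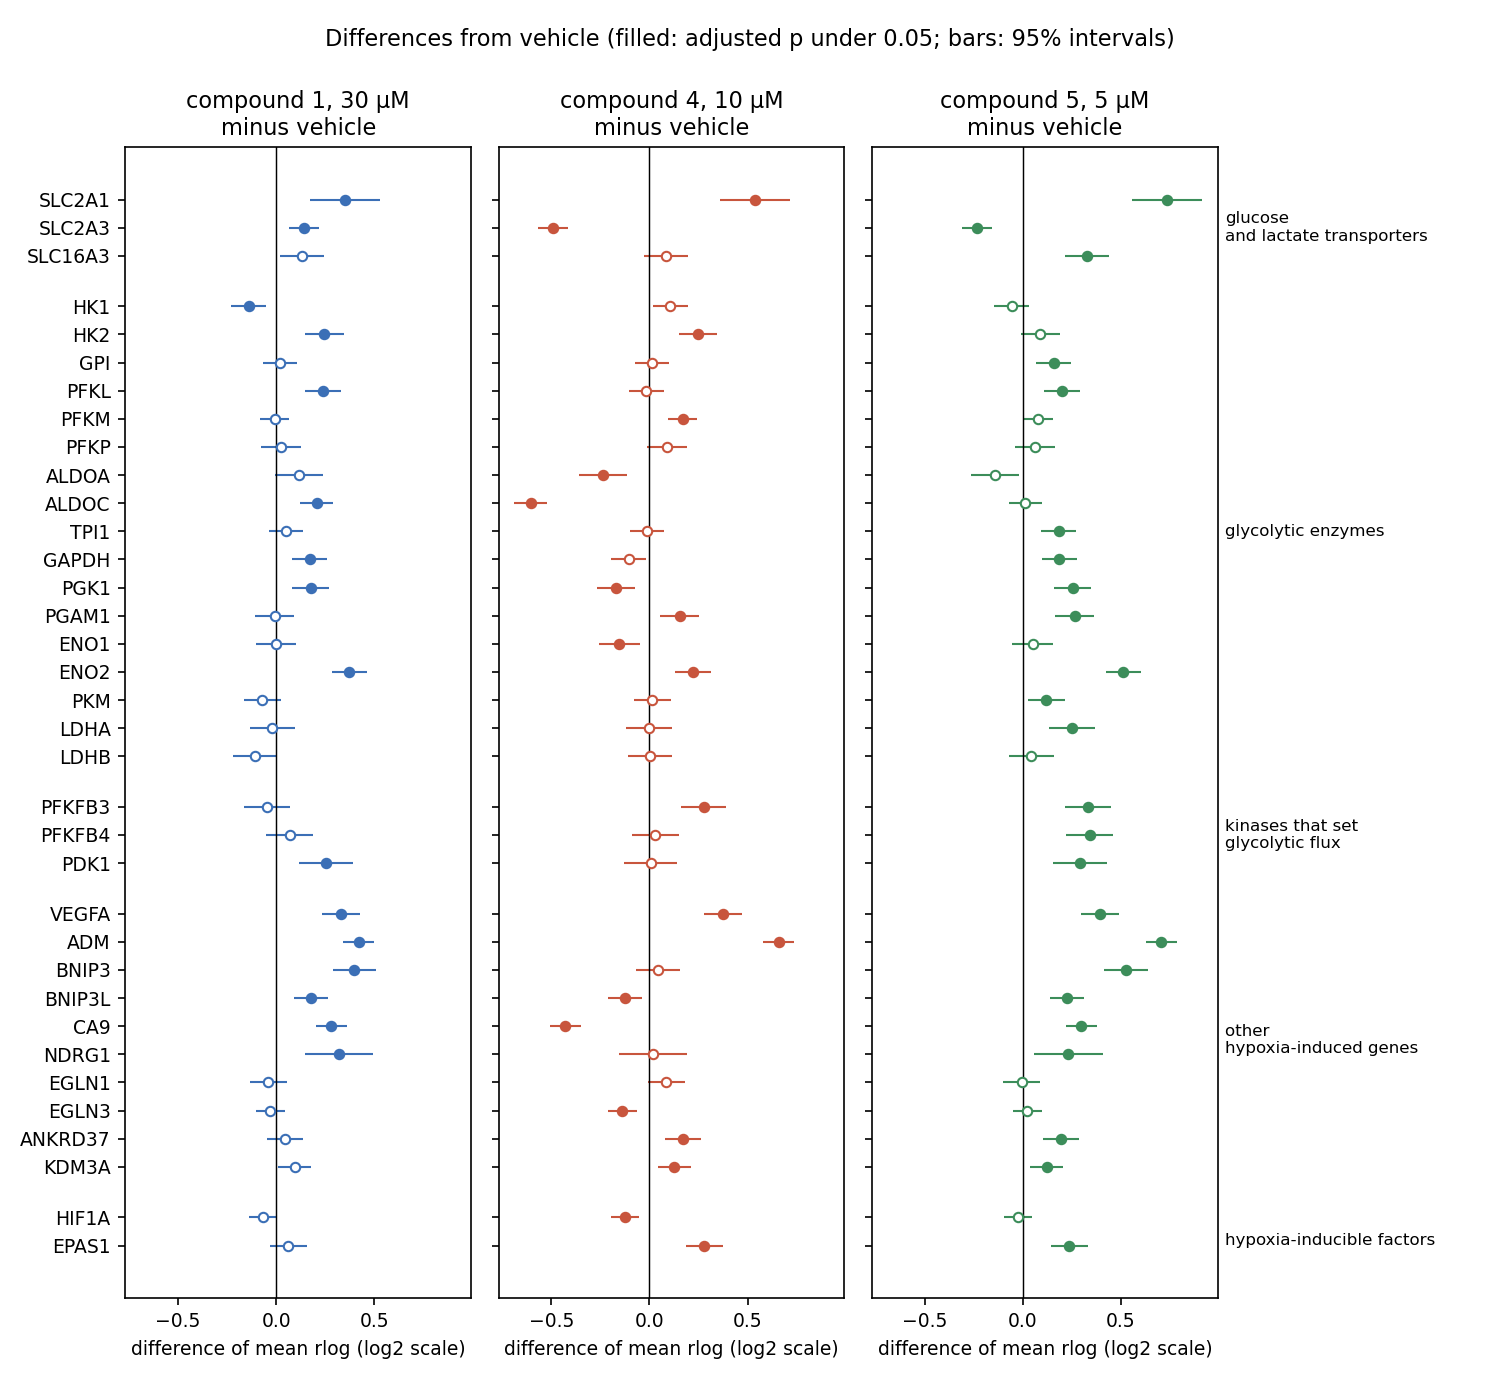
Differences of mean rlog (x axis, log2 scale) between each compound and vehicle for the 35 genes (rows, grouped by role), with 95% intervals from limma; filled points have an adjusted p under 0.05. Most points of compound 5 lie right of 0, while compound 4 has ALDOC, SLC2A3 and CA9 far to the left and ADM, SLC2A1 and VEGFA to the right.

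The 2 glucose carriers changed in opposite directions with compounds 4 and 5 and both rose with compound 1. SLC2A1 (GLUT1, the basal glucose carrier) had 11.42, 11.61 and 11.12 in compound 1 libraries, 11.59, 11.68 and 11.43 in compound 4 libraries and 12.02, 11.64 and 11.64 in compound 5 libraries, against 10.96, 11.06 and 11.08 in vehicle libraries. Every treated library lay above every vehicle library, although replicate 3 of compound 1 did so by little. SLC2A1 rose by 0.35 with compound 1 (SE 0.09, limma, Benjamini-Hochberg adjusted p = 0.00952), by 0.54 with compound 4 (adjusted p = 1.44e-05) and by 0.73 with compound 5 (adjusted p = 2.22e-07). The call with compound 1 was lost without its replicate 2 (0.23, adjusted p = 0.0783) or without vehicle replicate 1 (0.31, adjusted p = 0.0590). It held in 16 of 21 other settings, 10 of them with a single library left out, and the highest adjusted p was 0.1764. SLC2A3 (GLUT3, a carrier of high affinity best known from neurons) had 12.24, 12.16 and 12.16 with compound 1, 11.58, 11.53 and 11.55 with compound 4 and 11.82, 11.78 and 11.83 with compound 5, against 12.09, 11.98 and 12.07 in vehicle. All compound 4 and compound 5 libraries lay below all vehicle libraries, with compound 4 lowest. It fell by 0.49 with compound 4 (SE 0.04, limma adjusted p = 3.01e-11) and by 0.23 with compound 5 (adjusted p = 1.86e-05). With compound 1 it rose by 0.14 (adjusted p = 0.0142), a call lost without compound 1 replicate 1 (0.12, adjusted p = 0.102) or vehicle replicate 2 (0.11, adjusted p = 0.124) and with the covariate (0.16, adjusted p = 0.0900). SLC2A14 is a near-identical copy of SLC2A3, so reads may be split between them. SLC16A3 (MCT4, which exports lactate) rose by 0.33 with compound 5 (SE 0.05, limma adjusted p = 3.30e-05), and its differences of 0.13 with compound 1 (95% interval 0.02 to 0.24) and 0.09 with compound 4 (-0.03 to 0.20) did not pass. Without compound 1 replicate 3 it passed with compound 1 (0.21, adjusted p = 0.0131), and with the covariate it passed with compound 1 (0.29, adjusted p = 0.00310) and compound 4 (0.27, adjusted p = 0.00145).

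Of the 17 glycolytic enzymes, 6 rose and 1 fell with compound 1, 4 rose and 4 fell with compound 4, and 9 rose and 0 fell with compound 5. Beside the 19.0% and 21.6% of all tested genes called higher and lower with compound 4, 4 of 17 each way is near the background. With quantile normalization the split with compound 1 was 4 higher and 3 lower. The median difference of the enzymes was 0.03, 0.00 and 0.12 with compounds 1, 4 and 5. In the first steps, the hexokinases that trap glucose in the cell behaved differently. HK2, the isoform abundant in many tumours, rose by 0.25 with compound 1 (SE 0.05, limma adjusted p = 0.00122) and by 0.25 with compound 4 (adjusted p = 1.42e-04). Its 3 libraries of compound 5 spread widely, at 12.56, 12.32 and 12.30 against 12.34, 12.29 and 12.28 in vehicle, and its difference of 0.09 did not pass. It passed without replicate 3 of compound 5 (0.14, adjusted p = 0.0386), with quantile normalization (0.15, adjusted p = 0.0114) and with the covariate (0.25, adjusted p = 0.0161). HK1, the constitutive isoform, fell by 0.14 with compound 1 (adjusted p = 0.0364), which was lost in 9 of 21 other settings, 6 of them with a single library left out, and was -0.04 with the covariate (adjusted p = 0.797). With compound 4 HK1 was 0.11 higher and missed the threshold (95% interval 0.02 to 0.19). It stayed uncalled in 13 of 21 other settings, 9 of them with a single library left out. Of the single libraries, it passed without replicate 2 or 3 of compound 1 or without replicate 1 of compound 5 (limma adjusted p = 0.0497, 0.0345 and 0.0122). Without replicate 1 of compound 5, HK1 also passed as lower with compound 5 (-0.11, adjusted p = 0.0180). GPI, which makes fructose 6-phosphate, rose by 0.16 with compound 5 (adjusted p = 0.00477) and differed by 0.02 and 0.01 with compounds 1 and 4.

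The phosphofructokinases, which commit sugar to glycolysis, each took a different course. PFKL, the liver type, rose by 0.24 with compound 1 (SE 0.04, limma adjusted p = 7.09e-04) and by 0.20 with compound 5 (adjusted p = 7.58e-04), and differed by -0.02 with compound 4. PFKM, the muscle type, rose by 0.17 with compound 4 (adjusted p = 4.14e-04), with 11.20 in each of the 3 libraries against 11.06, 11.04 and 10.998 in vehicle. PFKP, the platelet type, passed in none of the 3 comparisons with limma (differences of 0.03, 0.09 and 0.06), and with the covariate it passed with compound 4 (0.23, adjusted p = 0.00307) and compound 5 (0.25, adjusted p = 0.0125).

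Aldolases cut the 6-carbon sugar, and both fell with compound 4. ALDOC, the brain-type aldolase, had 11.58, 11.52 and 11.44 with compound 1, 10.74, 10.72 and 10.66 with compound 4 and 11.34, 11.35 and 11.28 with compound 5, against 11.38, 11.28 and 11.27 in vehicle. Compound 4 libraries were the lowest by a wide margin, and compound 5 libraries lay among the vehicle libraries. ALDOC fell by 0.60 with compound 4 (SE 0.04, limma adjusted p = 2.66e-12), the largest fall among the 35 members in any of the 3 comparisons with vehicle, and rose by 0.21 with compound 1 (adjusted p = 0.00157). The difference of 0.01 with compound 5 had a 95% interval of -0.07 to 0.10. ALDOA, the ubiquitous aldolase, fell by 0.24 with compound 4 (adjusted p = 0.00221), a call lost with the covariate (-0.04, adjusted p = 0.694), with which ALDOA passed as higher with compound 1 (0.29, adjusted p = 0.00936). ALDOA shares 42.3% of its exon bases with ENSG00000285043 on the same strand in GENCODE 29, and its rlog of 10.24 to 10.46 in vehicle, low beside the other abundant enzymes, is uncertain, because the treatment of reads that fall in both genes is not given. ENSG00000285043 itself differed by -0.01, 0.08 and 0.08 with compounds 1, 4 and 5 and was not called. With compound 5, ALDOA was 0.14 lower, which passed without replicate 1 of compound 5 (-0.20, adjusted p = 0.00806) or vehicle replicate 3 (-0.18, adjusted p = 0.0361) and not otherwise among single libraries left out.

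In the payoff steps, compound 5 raised 5 enzymes between TPI1 and ENO2, and compound 4 lowered PGK1 and ENO1 while raising PGAM1 and ENO2. TPI1, which interconverts the triose phosphates, rose by 0.18 with compound 5 (SE 0.04, limma adjusted p = 0.00144). GAPDH, which oxidizes glyceraldehyde 3-phosphate and is widely used as a reference transcript, rose by 0.17 with compound 1 (adjusted p = 0.0118) and by 0.19 with compound 5 (adjusted p = 0.00134), and was 0.11 lower with compound 4 (adjusted p = 0.0516). The GAPDH values rest on the scaling: with quantile-normalized libraries, the difference was -0.05 with compound 1 (adjusted p = 0.529), 0.05 with compound 5 (adjusted p = 0.411) and -0.15 with compound 4 (adjusted p = 0.00846). The GAPDH call with compound 1 was also lost without compound 1 replicate 1 (adjusted p = 0.0909) or vehicle replicate 3 (adjusted p = 0.0513). With compound 4, GAPDH passed as lower without compound 1 replicate 2 or 3, compound 4 replicate 2 or compound 5 replicate 1 (adjusted p = 0.0483, 0.0182, 0.0415 and 0.0223). It stayed uncalled with compound 4 in 11 of 21 other settings, 8 of them with a single library left out. Quantile normalization also gave ENO1 (-0.14, adjusted p = 0.00851) and PKM (-0.17, adjusted p = 0.0172) as lower with compound 1 and LDHA as lower with compound 4 (-0.16, adjusted p = 0.0156).

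PGK1, which makes the first ATP of the pathway, had 15.30, 15.32 and 15.11 with compound 1, 14.89, 14.95 and 14.84 with compound 4 and 15.38, 15.28 and 15.30 with compound 5, against 15.05, 15.09 and 15.07 in vehicle. All compound 1 and compound 5 libraries lay above and all compound 4 libraries below the vehicle libraries. It rose by 0.25 with compound 5 (SE 0.05, limma adjusted p = 9.17e-05) and by 0.17 with compound 1 (adjusted p = 0.0143), and fell by 0.17 with compound 4 (adjusted p = 0.00423). With quantile normalization the rises were 0.07 with both compounds and did not pass (adjusted p = 0.249 with compound 5 and 0.400 with compound 1), and with the covariate the fall was 0.07 (adjusted p = 0.394). The compound 1 call was lost without its replicate 1 or 2 or vehicle replicate 1 (adjusted p = 0.0983, 0.0776 and 0.0581). PGAM1, the phosphoglycerate mutase, rose by 0.27 with compound 5 (adjusted p = 8.85e-05) and by 0.15 with compound 4 (adjusted p = 0.0119), the second of which was lost without compound 4 replicate 2 or vehicle replicate 3 (adjusted p = 0.0877 and 0.0640).

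The enolases diverged. ENO2, the neuron-type enolase, had 13.20, 13.23 and 13.03 with compound 1, 13.02, 13.05 and 12.94 with compound 4 and 13.33, 13.26 and 13.29 with compound 5, against 12.75, 12.82 and 12.78 in vehicle. Every treated library lay above every vehicle library. ENO2 rose by 0.37 with compound 1 (SE 0.04, limma adjusted p = 2.03e-06), by 0.22 with compound 4 (adjusted p = 1.77e-04) and by 0.51 with compound 5 (adjusted p = 7.57e-10), and all 3 calls held in all 21 other settings. ENO1, the ubiquitous and far more abundant enolase, fell by 0.15 with compound 4 (adjusted p = 0.0150) and differed by less than 0.01 with compound 1 and by 0.05 with compound 5. Its fall was lost without compound 4 replicate 1 or 3 or vehicle replicate 2 (adjusted p = 0.0508, 0.0589 and 0.0719) and with the covariate (-0.02, adjusted p = 0.803), with which ENO1 passed as higher with compound 5 (0.22, adjusted p = 0.0283).

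At the end of the pathway, LDHA, which forms lactate from pyruvate, rose with compound 5. It had 16.00, 15.84 and 15.88 with compound 5 and 15.61, 15.70 and 15.65 in vehicle, with no overlap. The rise was 0.25 (SE 0.06, limma adjusted p = 9.64e-04) and became 0.10 with quantile normalization (adjusted p = 0.118). With compound 1 the LDHA difference was -0.02 (95% interval -0.14 to 0.10), and with compound 4 the interval ran from -0.12 to 0.12. PKM, pyruvate kinase, passed with compound 5 by a narrow margin (0.12, adjusted p = 0.0452) and did so in 7 of 21 other settings; it was -0.02 (adjusted p = 0.766) with quantile normalization. LDHB, whose product favours the reverse reaction, had a low vehicle mean of 8.02. It differed by -0.11, 0.00 and 0.04 with compounds 1, 4 and 5, none of which passed. LDHB shares 33.4% of its exon bases with a gene on the same strand that stood at -2.21. Its low level is uncertain, because the treatment of reads that fall in both genes is not given. Many of these enzymes have processed pseudogenes, and the treatment of reads shared with them is not given.

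**Figure D3:**
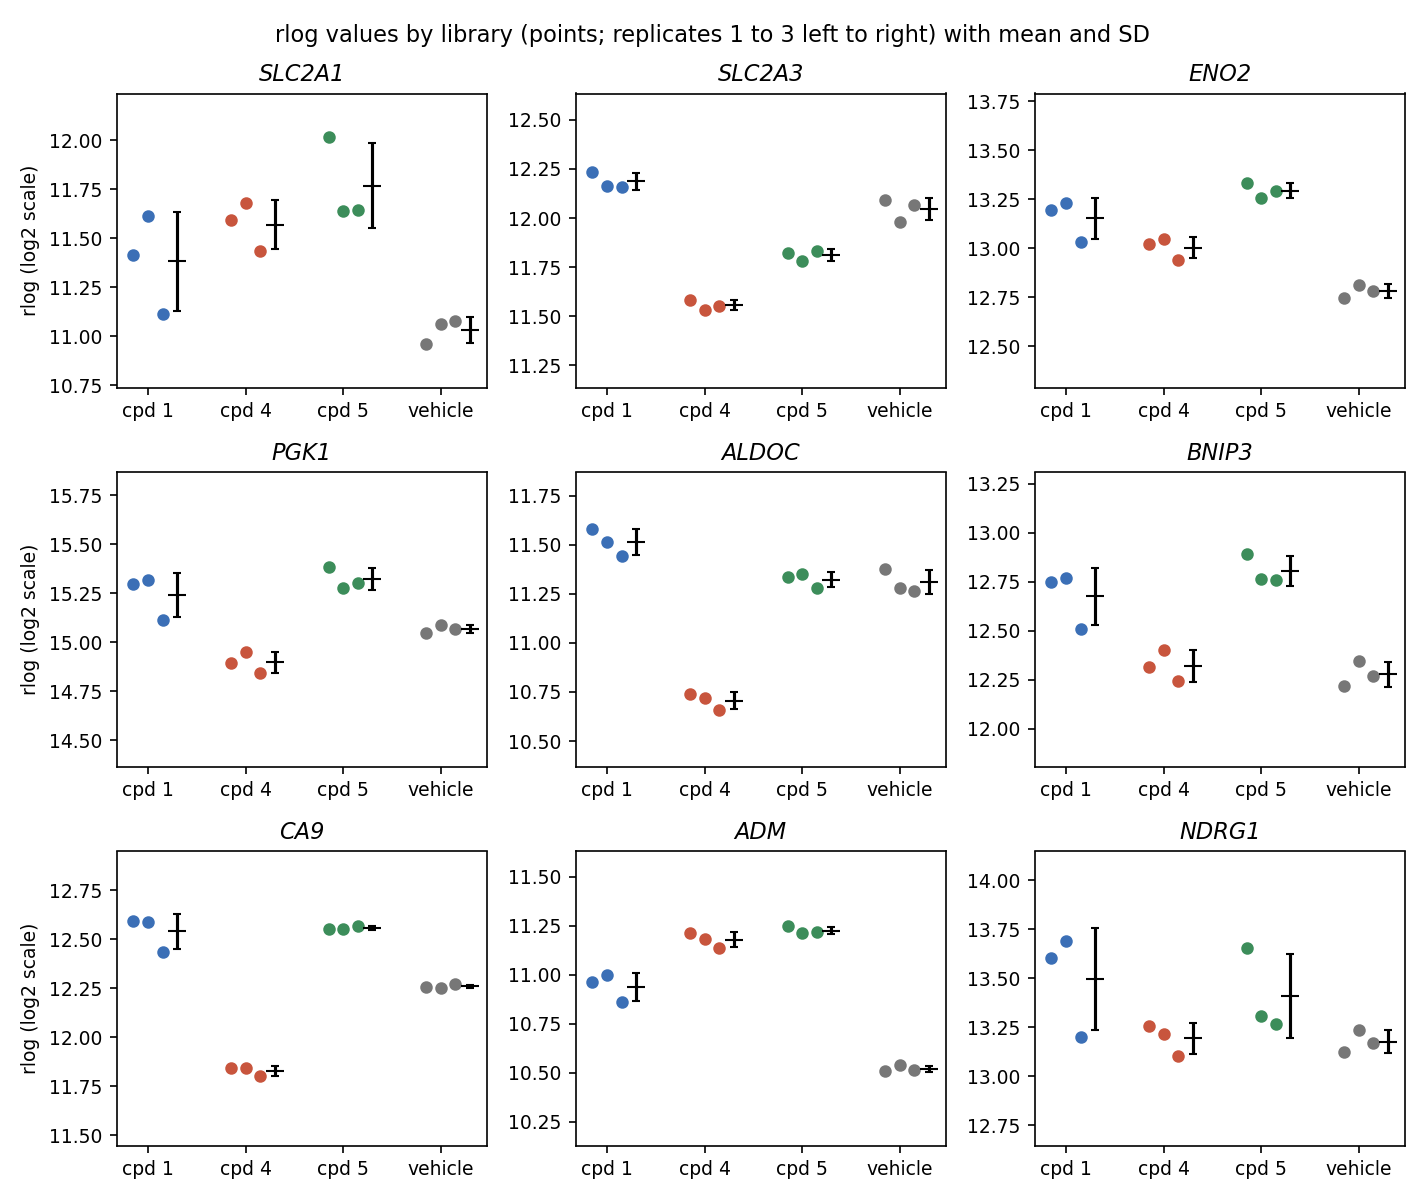
rlog values (y axis, log2 scale, each panel spanning the same range) of 9 genes in the 3 libraries of compound 1, compound 4, compound 5 and vehicle (cpd, compound), with the mean and SD of each group in black. ADM, ENO2 and SLC2A1 are above vehicle in all treated libraries, ALDOC, CA9, PGK1 and SLC2A3 are lowest with compound 4, and NDRG1 is split within compounds 1 and 5.

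All 3 kinases that set glycolytic flux rose with compound 5, and each of the other compounds raised 1 of them. Among all tested genes, 5.24%, 19.0% and 15.9% rose with compounds 1, 4 and 5. PFKFB3, which makes the activator of phosphofructokinase fructose 2,6-bisphosphate, had 10.91, 11.07 and 10.85 with compound 1, 11.27, 11.32 and 11.21 with compound 4 and 11.51, 11.24 and 11.22 with compound 5, against 10.98, 10.99 and 11.004 in vehicle. Compound 4 and compound 5 libraries were all above vehicle, and those of compound 1 lay on both sides of it. PFKFB3 rose by 0.27 with compound 4 (SE 0.06, limma adjusted p = 3.04e-04) and by 0.33 with compound 5 (adjusted p = 4.35e-05). PFKFB4, an isoenzyme of PFKFB3, rose by 0.34 with compound 5 (adjusted p = 4.51e-05), and its difference of 0.03 with compound 4 passed with the covariate (0.20, adjusted p = 0.0282). PDK1, the pyruvate dehydrogenase kinase that keeps pyruvate out of the mitochondrion, rose by 0.29 with compound 5 (adjusted p = 0.00104) and by 0.25 with compound 1 (adjusted p = 0.0140). The PDK1 call with compound 1 was lost without its replicate 1 or 2 or vehicle replicate 1 (adjusted p = 0.106, 0.0648 and 0.0870). It held in 15 of 21 other settings, 9 of them with a single library left out, and the highest adjusted p was 0.1625.

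Of the 10 other hypoxia-induced genes, 6 rose with compound 1, 4 rose and 3 fell with compound 4, and 8 rose with compound 5, with 0 falls for compounds 1 and 5. Among all tested genes, 5.24%, 19.0% and 15.9% rose and 5.63%, 21.6% and 19.2% fell with compounds 1, 4 and 5. Beside these shares, the 3 falls with compound 4 are little above the background. With the covariate, compound 5 raised 7 of these 10 and 12 of the 17 enzymes. ADM and VEGFA rose with every compound. ADM, the vasodilator peptide adrenomedullin, had 10.96, 10.997 and 10.86 with compound 1, 11.21, 11.18 and 11.14 with compound 4 and 11.25, 11.21 and 11.22 with compound 5, against 10.51, 10.54 and 10.51 in vehicle. No treated library came within the range of vehicle, and the compound 1 libraries lay below those of compounds 4 and 5. ADM rose by 0.42 (SE 0.04, limma adjusted p = 3.93e-08), 0.66 (adjusted p = 1.20e-13) and 0.71 (adjusted p = 2.58e-13) with compounds 1, 4 and 5. VEGFA, the main angiogenic growth factor, had 13.78, 13.82 and 13.66 with compound 1, 13.83, 13.83 and 13.73 with compound 4 and 13.93, 13.78 and 13.74 with compound 5, against 13.38, 13.43 and 13.46 in vehicle. The 3 treated groups overlapped each other and were all above vehicle. VEGFA rose by 0.33, 0.37 and 0.39 with compounds 1, 4 and 5 (SE 0.05 each, limma adjusted p = 3.16e-05, 3.61e-07 and 3.00e-07).

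CA9 and the mitophagy receptors separated compound 4 from the other compounds. CA9, the carbonic anhydrase at the cell surface that serves as a marker of hypoxia, had 12.59, 12.59 and 12.44 with compound 1, 11.84, 11.84 and 11.80 with compound 4 and 12.55, 12.55 and 12.57 with compound 5, against 12.26, 12.25 and 12.27 in vehicle. Compound 4 libraries were all below vehicle and the others all above. CA9 fell by 0.43 with compound 4 (SE 0.04, limma adjusted p = 8.41e-10), and rose by 0.28 with compound 1 (adjusted p = 1.94e-05) and by 0.30 with compound 5 (adjusted p = 9.01e-07). CA9 overlaps ARHGEF39 on the opposite strand over 38.5% of its exon bases, and the strand setting of the counting is not given, so reads there cannot be told apart. ARHGEF39, named only because it overlaps, was the weaker gene (7.30 against 12.26 for CA9 in vehicle), rose with compound 4 by 0.12 (adjusted p = 0.0373) and with compound 5 by 0.22 (adjusted p = 5.98e-04), and differed by 0.02 with compound 1.

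BNIP3, which tags mitochondria for removal, had 12.75, 12.77 and 12.51 with compound 1, 12.31, 12.40 and 12.24 with compound 4 and 12.89, 12.76 and 12.76 with compound 5, against 12.22, 12.35 and 12.27 in vehicle. Compound 4 libraries overlapped vehicle, and those of compounds 1 and 5 were all above both. It rose by 0.40 with compound 1 (SE 0.05, limma adjusted p = 1.60e-05) and by 0.53 with compound 5 (adjusted p = 2.13e-08), and the difference with compound 4 was 0.04 (95% interval -0.07 to 0.15). BNIP3L, its homologue, rose by 0.18 with compound 1 (adjusted p = 0.00683) and by 0.23 with compound 5 (adjusted p = 1.18e-04) and fell by 0.12 with compound 4 (adjusted p = 0.0184). The BNIP3L call with compound 1 was lost without its replicate 1 (0.15, adjusted p = 0.0588), and that with compound 4 without its replicate 3 (-0.11, adjusted p = 0.0820), without vehicle replicate 2 (-0.11, adjusted p = 0.0696), with quantile normalization (-0.06, adjusted p = 0.254) and with the covariate (-0.05, adjusted p = 0.565).

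NDRG1, a stress-responsive gene often used as a hypoxia marker, was split within groups. It had 13.60, 13.69 and 13.20 with compound 1 and 13.65, 13.30 and 13.27 with compound 5, against 13.12, 13.24 and 13.17 in vehicle. Replicate 3 of compound 1 lay inside the vehicle range, and replicate 1 of compound 5 far above its group. The rises of 0.32 with compound 1 (SE 0.08, limma adjusted p = 0.0140) and 0.23 with compound 5 (adjusted p = 0.0336) rested on few libraries: without replicate 1 of compound 5 the second was 0.11 (adjusted p = 0.261), and without vehicle replicate 1 or 3 its adjusted p was 0.124 or 0.0807. The first was lost without compound 1 replicate 1 or 2 or vehicle replicate 1 (adjusted p = 0.0941, 0.0981 and 0.0690). Each of these NDRG1 calls held in 15 of 21 other settings, 9 of them with a single library left out. The highest adjusted p with compound 1 was 0.2006. With the covariate NDRG1 also passed with compound 4 (0.28, adjusted p = 0.0340). KDM3A, a histone demethylase, rose by 0.13 with compound 4 (adjusted p = 0.0159) and by 0.12 with compound 5 (adjusted p = 0.0241), and both were lost without vehicle replicate 1 (0.10 and 0.10, adjusted p = 0.0895 and 0.122) or 2 (0.10 and 0.09, adjusted p = 0.0968 and 0.130). Both KDM3A calls were lost with the covariate (0.09, adjusted p = 0.284 with compound 4 and 0.07, adjusted p = 0.549 with compound 5). The compound 4 call was lost also without compound 4 replicate 1 (adjusted p = 0.0567), and the compound 5 call without compound 5 replicate 1 (adjusted p = 0.0878). KDM3A with compound 1 was 0.09 higher and passed without vehicle replicate 3 (0.14, adjusted p = 0.0368).

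ANKRD37, an ankyrin-repeat gene induced by hypoxia, rose by 0.17 with compound 4 (SE 0.04, limma adjusted p = 0.00333) and by 0.19 with compound 5 (adjusted p = 0.00127). It overlaps UFSP2 on the opposite strand over 35.2% of its exon bases, and UFSP2, the stronger gene at 9.39 in vehicle, fell with compounds 4 and 5 (by 0.31 and 0.26, adjusted p = 3.21e-07 and 7.88e-06). The oxygen-sensing prolyl hydroxylases EGLN1 and EGLN3, which are themselves hypoxia-induced, did not rise. EGLN1 differed by -0.04, 0.08 and less than 0.01 with compounds 1, 4 and 5 and was not called, though with the covariate it passed as higher with compound 4 (0.20, adjusted p = 0.00841). EGLN3, the weakest member with a vehicle mean of 5.42, fell by 0.14 with compound 4 (adjusted p = 0.00239), which became 0.07 (adjusted p = 0.326) with the covariate, and differed by -0.03 and 0.02 with compounds 1 and 5.

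Of the 2 alpha subunits, EPAS1 rose with compounds 4 and 5 and HIF1A fell with compound 4. HIF1A had 13.26, 13.26 and 13.27 with compound 1, 13.20, 13.21 and 13.20 with compound 4 and 13.30, 13.31 and 13.31 with compound 5, against 13.38, 13.30 and 13.31 in vehicle. Compound 1 and compound 4 libraries were below all vehicle libraries, by small amounts. HIF1A fell by 0.12 with compound 4 (SE 0.03, limma adjusted p = 0.00487; 0.0975 with the covariate), and differed by -0.07 with compound 1 and -0.02 with compound 5. EPAS1, which encodes the alpha subunit of HIF-2, had 13.61, 13.61 and 13.55 with compound 1, 13.82, 13.86 and 13.74 with compound 4 and 13.91, 13.70 and 13.69 with compound 5, against 13.53 in each of the 3 vehicle libraries. It rose by 0.28 with compound 4 (SE 0.05, limma adjusted p = 1.95e-05) and by 0.24 with compound 5 (adjusted p = 1.97e-04). These factors are controlled mainly through protein stability, which was not measured.

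Glycolytic enzymes and other hypoxia-induced genes were then set side by side. The median difference from the vehicle mean over the 17 enzymes was 0.06, 0.12 and -0.08 in the 3 compound 1 libraries, 0.01, 0.03 and -0.03 in the compound 4 libraries and 0.20, 0.08 and 0.14 in the compound 5 libraries. Over the 10 other hypoxia-induced genes it was 0.28, 0.27 and 0.09 in compound 1 libraries, 0.08, 0.11 and 0.01 in compound 4 libraries and 0.30, 0.18 and 0.19 in compound 5 libraries. Vehicle libraries ran from -0.03 to 0.02 for the enzymes and from -0.02 to 0.01 for the other genes. In each of the 9 treated libraries the median of the hypoxia-induced genes was above that of the enzymes, and replicate 3 of compound 1 was the lowest treated library for the enzymes. Without that library the compound 1 medians were 0.10 for enzymes and 0.28 for hypoxia-induced genes, against 0.03 and 0.23 with it. These medians describe the lists and were given no test.

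**Figure D4:**
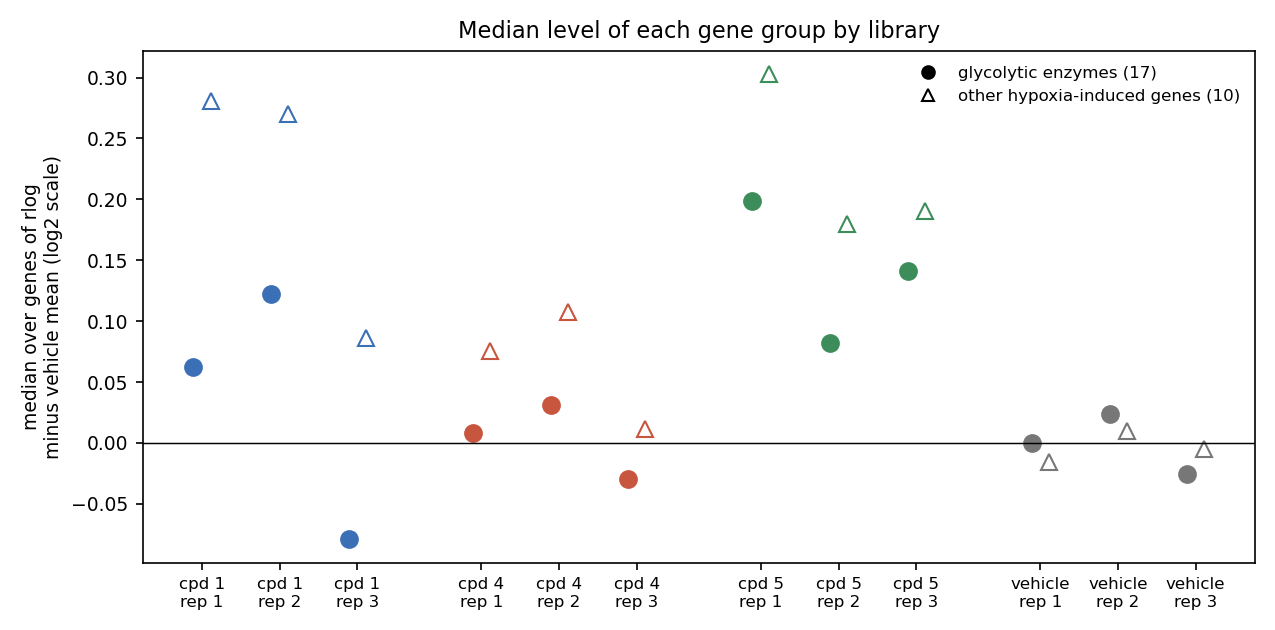
Median over genes of rlog minus the vehicle mean (y axis, log2 scale) in each of the 12 libraries, for 17 glycolytic enzymes (filled circles) and 10 other hypoxia-induced genes (open triangles). The triangle lies above the circle in all 9 treated libraries, and compound 1 replicate 3 is the lowest treated circle at -0.08.

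Between the groups as treated, compounds 5 and 4 differed most in members that were higher with compound 5. Against compound 4, compound 5 had 18 members higher and 2 lower, where 10.7% of tested genes were higher and 11.4% lower. The largest of these differences were in CA9 (0.73, SE 0.04, limma adjusted p = 1.68e-13), ALDOC (0.62, adjusted p = 9.27e-12), BNIP3 (0.48, adjusted p = 1.31e-07), PGK1 (0.42, adjusted p = 8.61e-08) and BNIP3L (0.35, adjusted p = 4.24e-07). HK1 and HK2 were lower with compound 5 than with compound 4, by 0.16 each (adjusted p = 0.00805 and 0.0173); the first was lost without compound 5 replicate 2 (adjusted p = 0.0699), and the second without compound 5 replicate 2 or 3 or compound 4 replicate 1 (adjusted p = 0.116, 0.133 and 0.0766). ADM and VEGFA differed by 0.05 (95% interval -0.03 to 0.13) and 0.02 (-0.08 to 0.12).

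Against compound 1, compound 4 had 8 members higher and 14 lower (20.9% and 21.8% of tested genes), and 5 higher without replicate 3 of compound 1 or replicate 2 of compound 4. ALDOC (-0.81, SE 0.04, limma adjusted p = 4.82e-15), CA9 (-0.71, adjusted p = 2.32e-14) and SLC2A3 (-0.63, adjusted p = 1.35e-13) were the furthest below compound 1, and PFKFB3 (0.32, adjusted p = 3.80e-05) and HK1 (0.25, adjusted p = 4.42e-05) the furthest above. Against compound 1, compound 5 had 14 members higher and 4 lower (13.9% and 16.2% of tested genes), and 8 higher when replicate 3 of compound 1 was left out. SLC2A1 (0.38, SE 0.09, adjusted p = 0.00124), PFKFB3 (0.38, adjusted p = 9.90e-06) and ADM (0.29, adjusted p = 2.23e-06) were higher with compound 5, and SLC2A3 (-0.38, adjusted p = 2.05e-08), ALDOA (-0.26, adjusted p = 0.00177) and ALDOC (-0.19, adjusted p = 7.36e-04) lower. CA9 differed between compounds 5 and 1 by 0.02 (95% interval -0.06 to 0.10) and GAPDH by 0.02 (-0.07 to 0.11).

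Levels of different genes can be compared only per length, so log2 of the exon length in kb was taken from each rlog value. This length joins all annotated exons of a gene (8571 bases for PKM, 14883 for PDK1), and the transcripts present can be shorter. The SDs below cover the spread between libraries only, not errors in this length or the shrinkage of rlog values, so the order is approximate. On that scale the vehicle libraries ran from 14.82 ± 0.02 for GAPDH (SD, n = 3) and 13.92 ± 0.03 for ENO1 down to 2.54 ± 0.03 for EGLN3. The 6 highest members were all enzymes of the lower pathway, GAPDH, ENO1, PKM, TPI1, LDHA and PGK1, each separated from its neighbour by more than their SDs. CA9 came next, at 11.52 ± 0.01, above PFKP at 11.05 ± 0.04. Within the sugar-phosphate steps, PFKP exceeded PFKL (9.69 ± 0.05) and PFKM (8.16 ± 0.03). SLC2A3 (9.42 ± 0.06) stood above SLC2A1 (8.79 ± 0.07) in vehicle libraries, whereas with compound 4 SLC2A1 was at 9.33 ± 0.12 and SLC2A3 at 8.93 ± 0.02. Neighbours in the middle of the order, such as ENO2 (10.68 ± 0.03) and EPAS1 (10.66 ± 0.003), NDRG1 (9.88 ± 0.06) and BNIP3 (9.87 ± 0.06), HK2 (9.70 ± 0.03) and PFKL, or GPI (9.43 ± 0.04) and SLC2A3, did not differ beyond their spread.

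**Figure D5:**
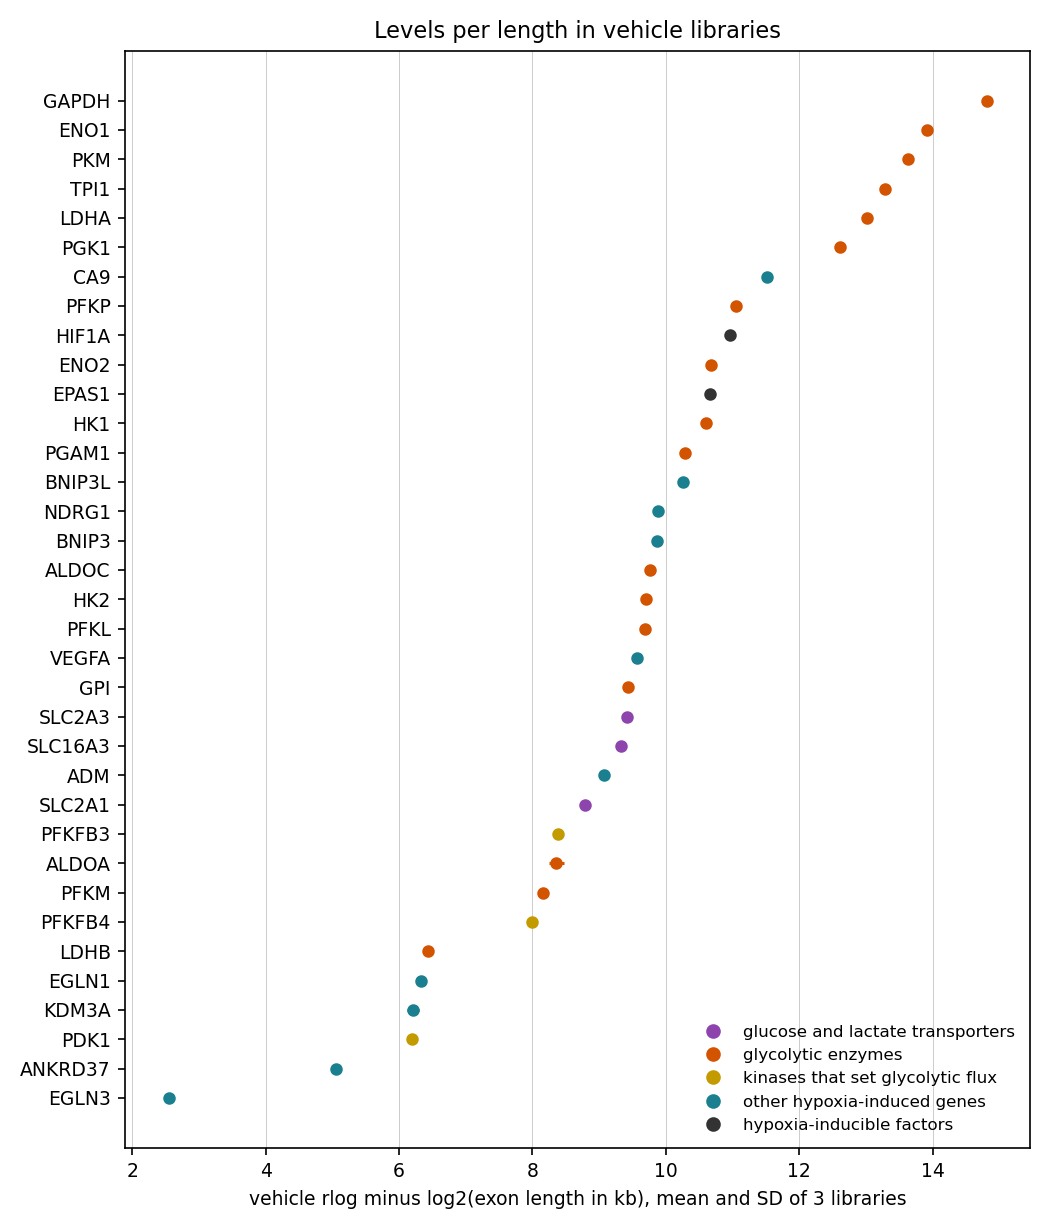
Level per length of the 35 genes in vehicle libraries (x axis, rlog minus log2 of the union exon length in kb, mean and SD of 3 libraries; rows in order of level, colours by role). GAPDH is at the top with 14.82 and EGLN3 at the bottom with 2.54, and orange points (glycolytic enzymes) take the first 6 places.

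Further genes of the same pathways, taken from lists that do not include the members, were counted in the same fit. Their counts stand against shares of all tested genes called higher and lower of 5.24% and 5.63% with compound 1, 19.0% and 21.6% with compound 4 and 15.9% and 19.2% with compound 5. Of 42 further hypoxia-induced genes measured, 23 rose and 2 fell with compound 1, 16 rose and 12 fell with compound 4, and 31 rose and 1 fell with compound 5, with medians of 0.19, 0.07 and 0.28. With the covariate, 24 rose and 0 fell with compound 1, 19 rose and 8 fell with compound 4, and 32 rose and 1 fell with compound 5. IGFBP3, which binds insulin-like growth factors, rose by 1.09 with compound 1 (limma adjusted p = 8.77e-10) and by 0.95 with compound 5 (adjusted p = 4.97e-10), and differed by -0.11 with compound 4. The collagen-crosslinking oxidases LOX and LOXL2 rose by 0.54 and 0.55 with compound 1 and by 0.54 and 0.31 with compound 5, and fell by 0.29 and 0.25 with compound 4. HMOX1, the haem oxygenase, which other stresses also induce, rose by 1.52 with compound 4 (adjusted p = 3.31e-21) and by 1.25 with compound 5 (adjusted p = 6.66e-19), and differed by -0.01 with compound 1. ANGPTL4, a lipase inhibitor, rose by 0.78 and 0.96 and the calcium-regulating hormone STC1 by 0.69 and 0.57 with compounds 4 and 5. DDIT4, an inhibitor of mTORC1 signalling, fell by 0.41 and 0.34 with the same compounds. The lncRNA MIR210HG and the ubiquitin ligase adaptor WSB1 rose with all 3 compounds.

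Among genes of pyruvate entry into mitochondria and the citric acid cycle, more fell than rose with each compound. Of 31 such genes measured, 1 rose and 13 fell with compound 1, 2 rose and 13 fell with compound 4, and 2 rose and 16 fell with compound 5, with medians of -0.08, -0.09 and -0.12. With the covariate, 1, 5 and 6 genes fell with compounds 1, 4 and 5, and the list medians were -0.08, -0.07 and -0.08. Without replicate 3 of compound 1, 6 genes fell with that compound, at a median of -0.08. PDK4, another pyruvate dehydrogenase kinase, fell by 0.37, 0.40 and 0.41 with compounds 1, 4 and 5 (limma adjusted p = 1.13e-04, 3.15e-06 and 3.78e-06), whereas PDK3 rose with compounds 1 and 5 (0.17 and 0.25). PDHB, a subunit of pyruvate dehydrogenase, fell by 0.16, 0.22 and 0.25, and SUCLG2, a subunit of succinyl-CoA ligase, fell by 0.35 with compound 4 and 0.31 with compound 5. Of 17 other glycolysis and pyruvate genes measured of 26 listed, 2 rose and 1 fell with compound 1, 3 rose and 9 fell with compound 4, and 3 rose and 5 fell with compound 5. Beside the 15.9% and 19.2% of all tested genes called higher and lower with compound 5, its split is near the background. With the covariate, 4 of them fell with compound 4, and with quantile normalization 1 rose and 1 fell with compound 1. SLC16A7 (MCT2, a monocarboxylate carrier) fell by 0.19, 0.37 and 0.44 with compounds 1, 4 and 5, and SLC16A1 (MCT1) rose by 0.15 with compound 1 and 0.21 with compound 5.

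The remaining lists held fewer calls. Of all tested genes, 19.0% were called higher and 21.6% lower with compound 4, and 15.9% and 19.2% with compound 5. Of the oxygen-sensing genes, 1 higher and 3 lower of 16 with compound 4 is no more than the background. The compound 4 splits of the pentose phosphate and glycogen genes are near or under it too. So is the compound 5 split of the glycogen genes. Of 16 genes of oxygen sensing and HIF partners, OS9 rose and CUL2 fell with compound 1; HIF1AN rose and ARNT, SIAH2 and RBX1 fell with compound 4; EGLN2 rose and ARNT, ARNT2, CREBBP, CUL2 and SIAH2 fell with compound 5. ARNT, the partner of the alpha subunits, fell by 0.22 with compound 4 (limma adjusted p = 1.27e-04) and by 0.24 with compound 5 (adjusted p = 5.80e-05), and differed by -0.02 with compound 1. Of 9 pentose phosphate genes measured of 10 listed, 0 rose and 2 fell with compound 1, 1 rose and 2 fell with compound 4, and 0 rose and 3 fell with compound 5. TKT, transketolase, fell by 0.19, 0.66 and 0.52 and PGD, 6-phosphogluconate dehydrogenase, by 0.15, 0.36 and 0.29 with compounds 1, 4 and 5. RPE rose with compound 4 by 0.13 and PRPS1 fell with compound 5 by 0.18. Of 11 glycogen genes measured of 12 listed, 2 rose and 0 fell with compound 1, 2 rose and 3 fell with compound 4, and 1 rose and 3 fell with compound 5. Among them, PHKA2 and PPP1R3B rose with compound 1; GYG1 rose and GSK3B, PYGB and PPP1R3B fell with compound 4; PYGL rose and GSK3B, PYGB and PHKA1 fell with compound 5. PYGB, the brain-type glycogen phosphorylase, fell by 0.16 and 0.22 with compounds 4 and 5. With the covariate, 1 of the oxygen-sensing genes fell with compound 5. The splits of these short lists moved with quantile normalization: oxygen-sensing genes had 3 higher and 2 lower with compound 4 and 2 higher and 4 lower with compound 5, pentose phosphate genes 2 higher and 3 lower with compound 5, and glycogen genes 4 higher and 3 lower with compound 5.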

How the data were processed

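Poly(A) RNA of U87 cells was sequenced in 12 libraries, 3 per group. The submitters' processing notes name STAR 2.7.10a, DESeq2 1.30.1 and GRCh38. The deposited values are rlog values of gene counts on the log2 scale, as the authors' table is named. How reads were counted (tool, annotation, strand, filters) is not stated in the sources used here. Depth is unknown, so no counting interval was computed and precision comes from the spread between libraries.

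Rows at 0 in every library (25759) and 47 duplicate rows of the Y pseudoautosomal region were left out. The 15524 genes whose mean reached 3 were fitted with limma 3.58.1 in R 4.3.3, 1 mean per group, moderated variances with a trend, 8 residual degrees of freedom, and p-values adjusted by Benjamini-Hochberg over those genes in each of 6 comparisons. Calls need an adjusted p below 0.05. The test was checked on simulated data with independent noise for each gene, which leaves out deviations that many genes of a library share. Gene symbols came from a table matched by Ensembl ID, overlaps and exon lengths from GENCODE 29 on GRCh38, and promoters from RefSeq (GRCh38.p14). All members are reported. From the wider lists, the up to 4 called genes with the largest difference per comparison with vehicle could be named, and those needed to account for small counts. The members and lists were chosen with earlier results of these data known, and the 3 genes that overlap members were added after seeing values. The other settings were no filter or a minimum mean of 5; median-centring or quantile normalization; fits of 2 groups alone, without a variance trend or with robust variances; a replicate block; a covariate from 16 nuclear-retained transcripts; and leaving out single libraries. Python 3.11.15 with pandas 2.3.3, numpy 2.4.6 and matplotlib 3.10.9 made the other tables and the figures.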

Additional observations from a re-analysis of the deposited data

How the results depend on the processing

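Counts of members called were compared over 9 other settings and 12 with a library left out. Without the low-value filter, 9 members rose and 0 fell with compound 1 (800 genes called in all), 9 were higher with compound 5 than with compound 1, and 0 lower with compound 5 than with compound 4. Quantile normalization gave 3 members lower with compound 1. It put GAPDH at -0.051 (adjusted p = 0.529) with compound 1 and PKM at -0.021 (adjusted p = 0.766) with compound 5, both changed in sign and no longer called. No variance trend gave 0 members lower with compound 1. The nuclear-retained covariate gave 0 members lower with compound 1 (435 genes called in all), 3 lower with compound 4 and 2292 genes called with compound 5. The cause of these shifts was not tested.

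With each library left out, members higher and lower and all genes called ran from 9 to 16, 0 to 1 and 849 to 2363 for compound 1; 10 to 12, 7 to 10 and 5128 to 6819 for compound 4; 20 to 23, 1 to 3 and 4242 to 5701 for compound 5; 5 to 10, 10 to 15 and 5687 to 7135 for compound 4 against compound 1; 8 to 15, 3 to 5 and 3610 to 4882 for compound 5 against compound 1; and 16 to 22, 0 to 4 and 2426 to 4060 for compound 5 against compound 4. Of the calls against vehicle, 8 of 16 with compound 1, 12 of 20 with compound 4 and 18 of 24 with compound 5 held in all 21 settings.

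Whether the replicate numbers pair the samples was not settled. Deviations of same-numbered libraries correlated between -0.215 and 0.249, and in no comparison were all pairs above 0.1. For compound 1 and vehicle, replicates 2 and 3 correlated with their same-numbered library at 0.249 and 0.171. Replicate 2 had the highest value for 25 of 35 members with compound 1, 23 with compound 4, 20 in vehicle and 1 with compound 5. With the replicate number as a block, 2 members fell with compound 5 instead of 1, ALDOA joining at -0.14 (adjusted p = 0.0282), and HK1 and GAPDH passed with compound 4 (0.11 and -0.11, adjusted p = 0.0473 and 0.0327). Median-centring moved the median of all genes by less than 0.011. Shrinkage of weak genes limits EGLN3, ANKRD37 and LDHB most.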
